A study of Mus musculus with 3 samples.

Results

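The chaperone and temperature response genes described here are 50 mouse genes of 26286 in the count table. They encode heat shock factors, cytosolic heat shock proteins with their cochaperones, the CCT chaperonin, a few mitochondrial chaperones and the cold-inducible RNA-binding proteins Cirbp and Rbm3. They were chosen by gene name with earlier results of the same 3 libraries known, among them that heat shock genes stood highest in replicate 3. Their levels, their spread and their order across libraries are therefore given as a description, and no test over the set supports anything. The RNA came from pre-B cells, the B-lineage precursors that rearrange immunoglobulin light chain genes, sorted from marrow as GFP+B220+IgM–Kit–CD25+ cells of bitransgenic mice (CAG-rtTA3;TRE-GFP-shLuc.1309). In these mice a CAG promoter drives the rtTA3 transactivator, and doxycycline (Dox), given for 3 days, switches on GFP linked to a control hairpin (shLuc). All 3 libraries share these alleles, the hairpin and the Dox, so no untreated or non-transgenic cells stand beside them. Replicate 3 was processed with CASAVA 1.8.0, Illumina's sequencing software, and replicates 1 and 2 with CASAVA 1.8.2, which is the one difference the labels give. Library and software version cannot be told apart. The labels do not say that the libraries came from separate animals, so the spread between them may be technical in part.

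Chaperones bind unfolded proteins and release them in cycles of ATP hydrolysis. HSP70 takes up new chains with the help of J-domain proteins, and nucleotide exchange factors, among them HSP110 and several BAG proteins, open it again. Clients such as kinases and hormone receptors pass on to HSP90. The ring-shaped CCT chaperonin folds actin and tubulin. Heat or other unfolding stress releases the transcription factor HSF1, which binds heat shock elements, repeats of the unit GAA in alternating directions, and induces a part of these genes, whereas mild cooling raises Cirbp and Rbm3.

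Replicate 3 held 32086649 counts, against 12418054 and 12021576 counts in replicates 1 and 2, a 2.67-fold range of depth, so counting error was smallest in replicate 3. Levels are RPKM, counts per length of gene and per size of library (with TMM factors, which even out composition), and CPM leaves the length out. All 12 pre-B markers, Cd79a, Rag1 and Il2ra (the CD25 of the sort) among them, had at least 1 RPKM in every library. The 15 neutrophil markers were detected too, at a summed 2462 RPKM in replicate 3 against 1388 and 1673 RPKM in replicates 1 and 2. Erythroid markers summed to 22.5, 23.1 and 19.7 RPKM, and T and NK cell markers to 14.76, 13.01 and 15.58 RPKM, in replicates 3, 1 and 2. The erythroid factor Gata1 had no count in replicates 3 and 2. In bulk RNA, fewer cells of a type and less RNA per cell cannot be told apart.

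Promoter sequence was read for the part of the genes that can carry a heat shock element near the start. RefSeq promoters on GRCm38.p6, 250 bases before to 50 bases after each start, matched 40 of the 50 genes. Hsf1, Hspa8, Hspa9, Hsp90aa1, Hsp90ab1, Dnajc2, Bag4, St13, Cct4 and Rbm3 had no promoter entry and were not searched. A 3-unit element (GAANNTTCNNGAA or TTCNNGAANNTTC, each covering both strands together with the other) lay in the promoters of 5 of the 40 genes, 12.5%, namely Hspd1, Hspe1, Hsph1, Dnajb6 and Chordc1. The same letters lay in 0.662% of the 27025 genes of the promoter table. The shorter 2-unit form (GAANNTTC or TTCNNGAA), which every 3-unit match contains, lay in 17 of the 40 genes, 42.5%, and in 17.0% of all genes of the table. The 4 windows that hold a 3-unit match and the 2 of the inducible HSP70 genes are shown because their genes recur below. Capitals mark the bases covered by a 2-unit or 3-unit match, each line runs 5′ to 3′ on the gene's own strand, and positions count from the start. The windows are Hspe1 from -160 to -41 (chr1:55087988-55088107, plus strand), Chordc1 from -30 to 30 (chr9:18292237-18292296, plus), Hsph1 from -60 to 30 (chr5:149636286-149636375, minus), Dnajb6 from -70 to -11 (chr5:29735828-29735887, plus), Hspa1b from -140 to -1 (chr17:34959239-34959378, minus) and Hspa1a from -140 to -1 (chr17:34972157-34972296, minus).
Hspe1: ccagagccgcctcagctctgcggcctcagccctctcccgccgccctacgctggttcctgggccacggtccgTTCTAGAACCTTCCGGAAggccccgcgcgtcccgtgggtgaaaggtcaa
Chordc1: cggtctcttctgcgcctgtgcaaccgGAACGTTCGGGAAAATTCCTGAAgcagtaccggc
Hsph1: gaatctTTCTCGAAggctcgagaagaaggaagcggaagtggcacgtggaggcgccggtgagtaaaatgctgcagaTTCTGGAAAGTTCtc
Dnajb6: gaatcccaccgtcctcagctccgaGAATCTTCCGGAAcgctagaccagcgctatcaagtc
Hspa1b: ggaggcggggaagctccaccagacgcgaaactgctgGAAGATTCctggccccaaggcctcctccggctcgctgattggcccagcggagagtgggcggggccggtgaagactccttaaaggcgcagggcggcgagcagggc
Hspa1a: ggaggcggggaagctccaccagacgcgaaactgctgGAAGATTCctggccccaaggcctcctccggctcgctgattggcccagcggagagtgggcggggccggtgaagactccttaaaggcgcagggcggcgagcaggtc
Hspe1 and Hspd1 are transcribed away from each other, and the 2 overlapping 3-unit matches of both are the same bases, chr1:55088059-55088076. Over the 250 bases before the start, Hspa1a and Hspa1b were identical at 247 positions, 98.8%. Neither promoter window of Cirbp held a match. A match of letters is a description, not a binding site, and no match says only that the letters are not in the window.

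Most of the set was well expressed. Of the 50 genes, 44 had at least 1 RPKM in every library, 88.0%, against 42.4% of the whole table. Mean levels reached 100 RPKM or more in 6 genes, lay from 20 up to 100 RPKM in 30, from 1 up to 20 RPKM in 10 and below 1 RPKM in 3. One gene, Hspb1, had no count. Together the genes took 0.738% of all counts in replicate 3, against 0.712% and 0.650% in replicates 1 and 2. The median log2(RPKM + 0.5) of the genes was 5.60, 5.37 and 5.25 in replicates 3, 1 and 2 (5.41 ± 0.17, SD, n = 3).

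**Figure D1:**
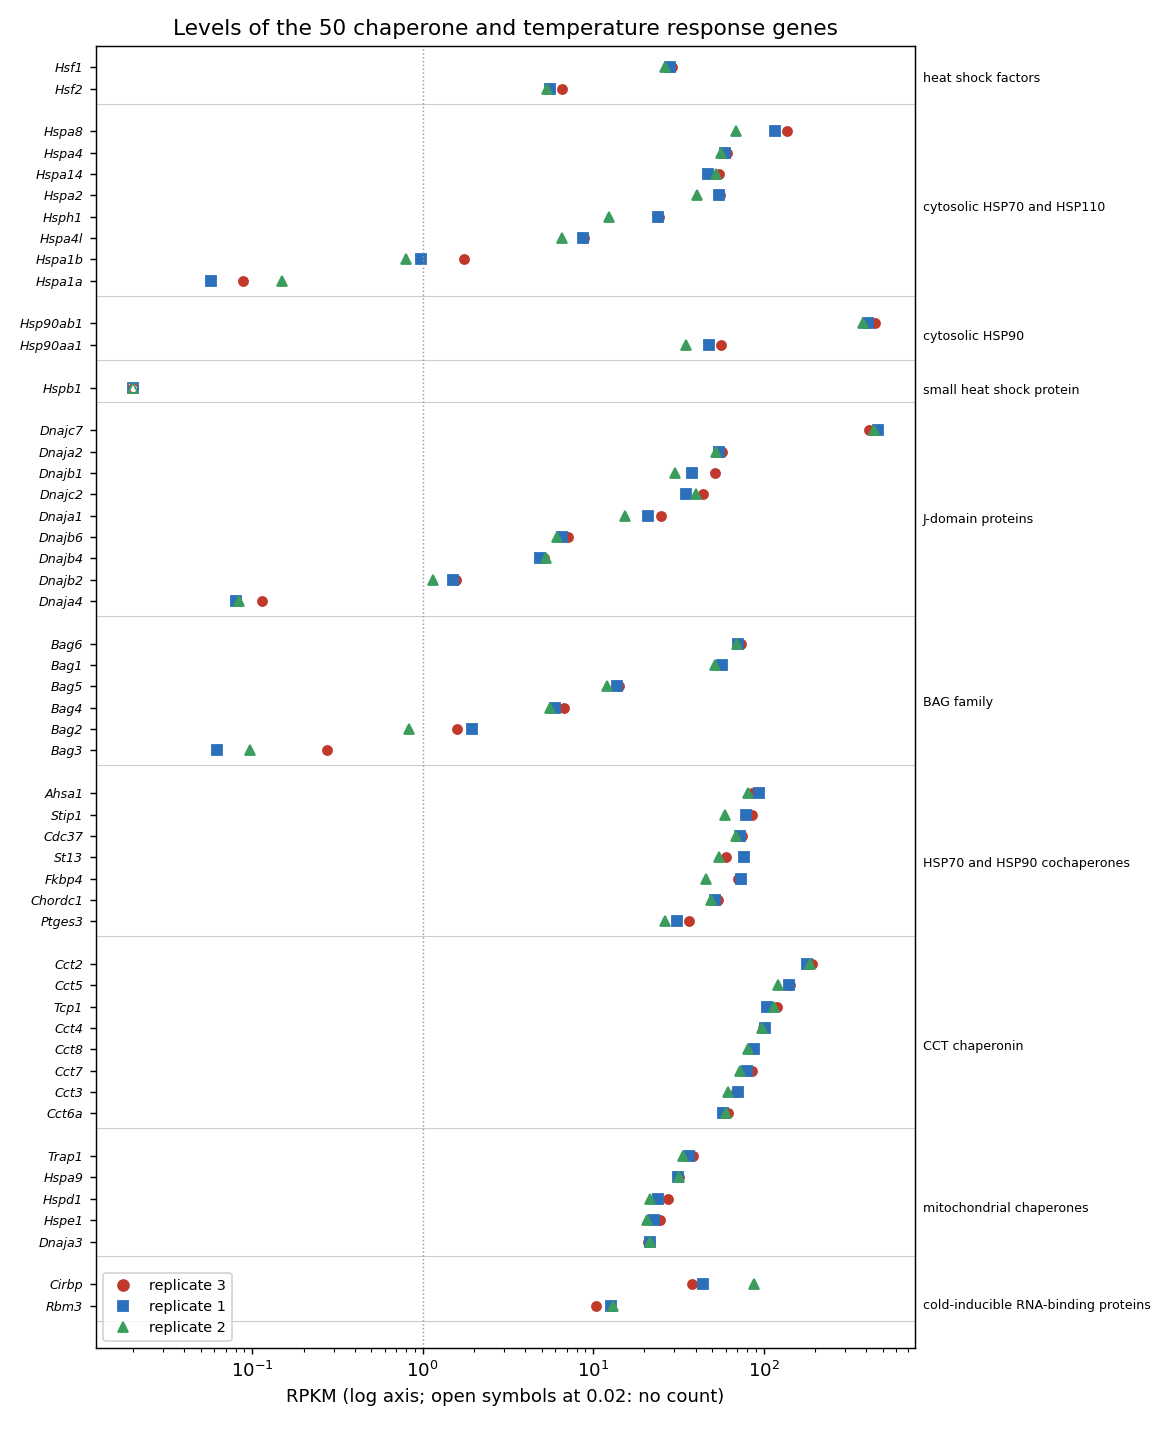
RPKM of the chaperone and temperature response genes on a log axis, by role, with replicate 3, replicate 1 and replicate 2 as separate points. Hsp90ab1 and Dnajc7 stand highest, at 384 to 468 RPKM, and Hspa1a, Bag3 and Dnaja4 lowest among genes with a count.

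The heat shock factors were expressed at moderate levels. Hsf1, the main activator of the heat shock response, had 29.05, 28.45 and 26.4 RPKM in replicates 3, 1 and 2. Hsf2, a related factor known from development and from joint binding with HSF1, had 6.55, 5.62 and 5.34 RPKM in the same libraries. Hsf1 stood 4.50-fold above Hsf2 (log2 difference in RPKM + 0.5 of 2.17 ± 0.09, SD, n = 3), and their levels did not overlap.

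Among the cytosolic HSP70 genes the constitutive form was the leading one and the stress-inducible pair was scarce. Hspa8, the everyday HSP70 that folds new chains and uncoats clathrin vesicles, had 136.6, 116 and 68.65 RPKM in replicates 3, 1 and 2, from 9248, 3032 and 1731 counts. Replicate 3 was highest and replicate 2 lowest, and the mean was 107.1 ± 34.8 RPKM (SD, n = 3). Hspa1b, one of the 2 inducible HSP70 genes, had 1.75, 0.974 and 0.802 RPKM, from 158 counts in replicate 3 and 34 and 27 in replicates 1 and 2. Hspa1a, its near copy, had 8, 2 and 5 counts. Hspa8 stood 61-, 79- and 53.1-fold above Hspa1b in replicates 3, 1 and 2 on the scale of RPKM + 0.5. Of the 31-base words in the transcripts of Hspa1a, 63.8% also occur in Hspa1b, and 73.9% of those of Hspa8 occur in other genes, so counts of these genes are uncertain.

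Other HSP70 relatives were more abundant than the inducible pair. Hspa2, known for its role in male germ cells, had 55.2, 54.7 and 40.8 RPKM in replicates 3, 1 and 2. Hspa14, which works at the ribosome, had 55.0, 47.3 and 52.7 RPKM. Hspa8 made up 54.9% of the summed RPKM of the 5 cytosolic HSP70 genes in replicate 3, and 53.0% and 42.1% in replicates 1 and 2.

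The HSP110 genes, whose proteins exchange the nucleotide of HSP70, differed in how even they were. Hspa4 had 60.8, 59.6 and 56.6 RPKM in replicates 3, 1 and 2. Its stress-inducible relative Hsph1 had 24.3 and 23.9 RPKM in replicates 3 and 1, and 12.4 RPKM in replicate 2. Hspa4l, the third member, had 8.81, 8.78 and 6.57 RPKM. Replicate 2 was lowest for all of these, and the gap was widest for Hsph1, so that Hspa4 stood 2.47- and 2.46-fold above Hsph1 in replicates 3 and 1 but 4.43-fold above it in replicate 2.

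On RPKM, HSP90, which matures kinases and receptors, was carried mainly by its constitutive gene. Hsp90ab1 had 450.9, 408.7 and 383.7 RPKM in replicates 3, 1 and 2 (414.4 ± 33.9 RPKM, SD, n = 3). The inducible Hsp90aa1 had 56.2 RPKM in replicate 3 against 47.6 and 35.1 RPKM in replicates 1 and 2. Hsp90ab1 held 88.9%, 89.6% and 91.6% of the summed RPKM of the pair in replicates 3, 1 and 2. Of the words of Hsp90aa1, 54.1% occur in other genes, against 15.5% for Hsp90ab1, so the counts of Hsp90aa1 and these shares are uncertain. Hspb1, the small heat shock protein HSP25, had 0 counts in each library, and 3 counts in the smallest library would be 0.276 RPKM. Of its words, 55.4% occur in other genes, and the rule for reads that fit several genes is unknown here.

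J-domain proteins hand clients to HSP70 and start its ATP cycle. Dnajc7, a cochaperone with repeats that bind both HSP70 and HSP90, had 413.3, 467.5 and 442.6 RPKM in replicates 3, 1 and 2, and was highest in replicate 1. It held 68.2%, 74.3% and 74.6% of the summed RPKM of the 9 J-domain genes of the set. Its row is uncertain because 15.6% of its words occur in Cnp and Nkiras2, and Cnp, named here after its values were seen, had 539, 568 and 551 RPKM. Without a stated strand rule, reads of such genes cannot be told apart.

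Dnajb1, the heat-inducible partner of cytosolic HSP70, had 51.6 RPKM in replicate 3 against 38.2 and 30.15 RPKM in replicates 1 and 2. Dnaja1, its farnesylated relative, had 25.1 RPKM against 21.0 and 15.3 RPKM in the same order. Replicate 3 was highest and replicate 2 lowest for both, and Dnaja1 stood below Dnajb1 in all libraries, by a log2 difference of -0.94 ± 0.09 (SD, n = 3). On CPM, with no length, that difference turned to 0.39 because the Dnaja1 row is 5792 bases long against 2264 bases for Dnajb1. Of the words of Dnaja1, 29.5% occur in other genes, against 0.444% for Dnajb1, so the counts of Dnaja1 are uncertain.

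The other J-domain genes ranged from well expressed to scarce. Dnaja2 had 57.4, 54.7 and 52.6 RPKM in replicates 3, 1 and 2, and the ribosome-bound Dnajc2 had 44.4, 35.1 and 40.1 RPKM. Dnajb6, which keeps aggregation-prone proteins apart, had 7.16, 6.56 and 6.16 RPKM. Dnajb4 and Dnajb2 lay between 1.15 and 5.27 RPKM in every library, and Dnaja4 had 11, 3 and 3 counts, with 43.3% of its words shared, nearly all of them with its neighbour Wdr61.

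Several BAG proteins open the nucleotide pocket of HSP70, and 2 of the 6 genes of the family held most of its RNA. Bag6, which guides membrane proteins and misfolded chains to their fates, had 73.7, 70.7 and 70.0 RPKM in replicates 3, 1 and 2. Bag1 had 56.6, 57.1 and 51.7 RPKM, with replicate 1 highest by a small margin. Bag5 and Bag4 lay between 5.58 and 14.2 RPKM, and Bag2 between 0.828 and 1.95 RPKM. Bag3, the stress-inducible member linked to autophagy of aggregates, had 0.715 CPM in replicate 3 (exact 95% Poisson interval 0.453 to 1.07), from 23 counts. It had 0.161 CPM (0.0195 to 0.582) in replicate 1 and 0.25 CPM (0.0516 to 0.732) in replicate 2, from 2 and 3 counts. The intervals overlap, and they cover counting error only. Bag3, Hspa1a, Dnaja4 and Hspb1 were the 4 genes that failed the filter on low counts.

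The cochaperones that link HSP70 and HSP90 were all well expressed. Stip1, which holds both machines together, had 85.9, 79 and 59.5 RPKM in replicates 3, 1 and 2. Fkbp4, an immunophilin of steroid receptor complexes, had 70.6, 74.1 and 45.9 RPKM, and St13, which steadies the client-bound form of HSP70, had 59.9, 77.25 and 54.7 RPKM. Replicate 2 was lowest for all 7 genes of the group. Ahsa1, an activator of the HSP90 ATPase, had 86.0, 93.6 and 80.9 RPKM, and Cdc37, which brings kinases to HSP90, had 74.3, 72.8 and 69.1 RPKM. Chordc1, an HSP90 partner whose promoter is printed above, had 53.9, 51.8 and 49.4 RPKM, and Ptges3, the p23 cochaperone, had 36.5, 31 and 26.3 RPKM.

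The 8 genes of the CCT ring were expressed at 57.6 to 191.3 RPKM, and each ring of the chaperonin holds all of their products. Cct2 had 191.3, 180.5 and 188 RPKM in replicates 3, 1 and 2, and Cct5 had 142.5, 141.3 and 122.4 RPKM. Tcp1 had 120.6, 104.3 and 114.7 RPKM and Cct4 had 98.95, 101.9 and 97.5 RPKM. The order of the 8 subunits on RPKM was the same in all 3 libraries, with Cct8 (87.1, 87.4 and 80.75 RPKM) and Cct7 (85.75, 79.9 and 72.7 RPKM) next. Cct3 followed with 69.1, 70.8 and 62.1 RPKM, and Cct6a came last with 62.0, 57.6 and 60.6 RPKM. Among neighbours in that order, the ranges over libraries overlapped for Cct8 and Cct7 and for no other pair. The highest subunit stood 3.09-, 3.13- and 3.10-fold above the lowest in replicates 3, 1 and 2. The coefficient of variation (CV, SD over mean) of a subunit over the libraries was 2.27% to 8.31%. Cct2 exceeded the median subunit by a log2 difference of 1.02 ± 0.08 and Cct6a lay at -0.61 ± 0.09 (SD, n = 3). On CPM, with no length, Cct4 and Cct8, which lie next to the median, changed sides. By counts alone the order also differed between libraries, since Tcp1 exceeded Cct5 in replicates 3 and 2 (9175 against 8116 and 3247 against 2596 counts) but not in replicate 1 (3062 against 3104 counts). Cct3 and Cct6a, and Cct7 and Cct8, likewise did not keep 1 order by counts. Of the words of Tcp1, 21.0% occur in other genes, with 18.5% for Cct6a, 14.9% for Cct7 and 10.8% for Cct3. The shares were 6.28% for Cct8, 3.47% for Cct4, 0.08% for Cct2 and 0% for Cct5. Counts of the first 4 and their places in the order are therefore uncertain.

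**Figure D2:**
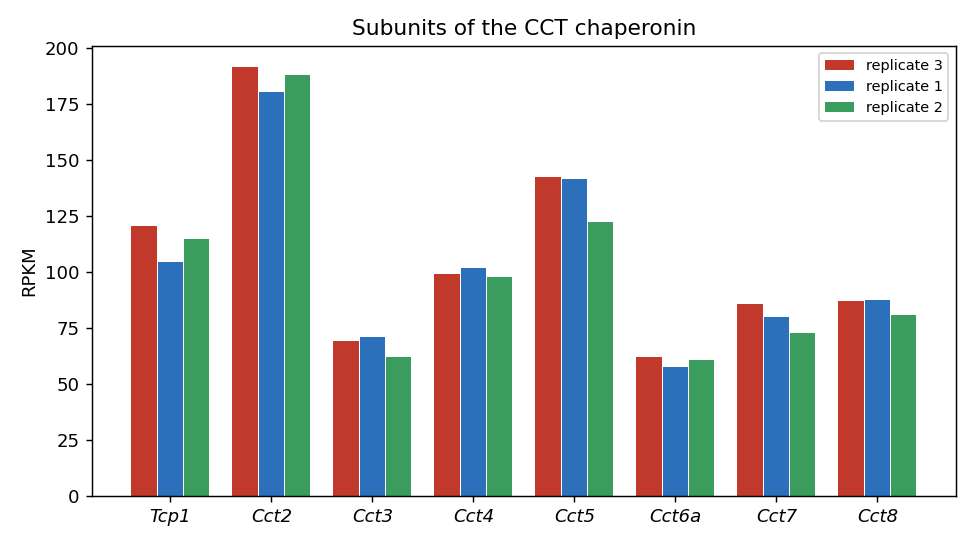
RPKM of the 8 CCT subunit genes from 0, with replicate 3, replicate 1 and replicate 2 as separate bars. On this scale the subunits keep 1 order in all libraries, from Cct2 at 180.5 to 191.3 RPKM down to Cct6a at 57.6 to 62.0 RPKM. Words shared with other genes leave the counts of Tcp1, Cct7, Cct3 and Cct6a uncertain.

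The mitochondrial chaperones of the set were expressed at moderate levels, with CVs from 1.02% for Hspa9 to 12.2% for Hspd1. Hspa9, the mitochondrial HSP70, had 31.9, 31.3 and 31.9 RPKM in replicates 3, 1 and 2 and the lowest CV of the 46 tested genes. Hspd1 and Hspe1 encode HSP60, the folding chamber of mitochondria, and HSP10, its lid, and share the promoter bases printed above. Hspd1 had 27.6, 23.9 and 21.7 RPKM and Hspe1 had 24.6, 22.75 and 20.75 RPKM, with the same order of libraries. Per length their levels were close, with Hspd1 1.07-fold above Hspe1 (log2 difference 0.10 ± 0.06, SD, n = 3), although 53.1% of the words of Hspd1 and 59.1% of those of Hspe1 occur in other genes. Trap1, the mitochondrial HSP90, had 38.7, 36.8 and 33.5 RPKM, and Dnaja3, a mitochondrial J-domain protein, had 21.0, 21.5 and 21.6 RPKM.

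On their own rows, the cold-inducible genes had the reverse of the order that most of the set had across the libraries. Cirbp, which binds and steadies RNAs after mild cooling, had 37.9 RPKM in replicate 3 against 43.9 and 87.9 RPKM in replicates 1 and 2. The level of replicate 2 stood apart from the other libraries, and the CV of 48.3% was the highest of the 46 tested genes. Rbm3, its close relative, had 10.5 RPKM in replicate 3 against 12.75 and 13.1 RPKM in replicates 1 and 2. Both were highest in replicate 2 and lowest in replicate 3. That placing was not particular to them, since of the 12 pre-B markers 10 were highest in replicate 2 and 9 lowest in replicate 3. The pseudogene Rbm3-ps, named after its values were seen, had 372, 274 and 463 RPKM in replicates 3, 1 and 2, and 10.2% of the words of Rbm3 occur in it. With its counts added, Rbm3 was 235 CPM in replicate 3 against 191 and 292 CPM in replicates 1 and 2, and replicate 1 became the lowest.

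**Figure D3:**
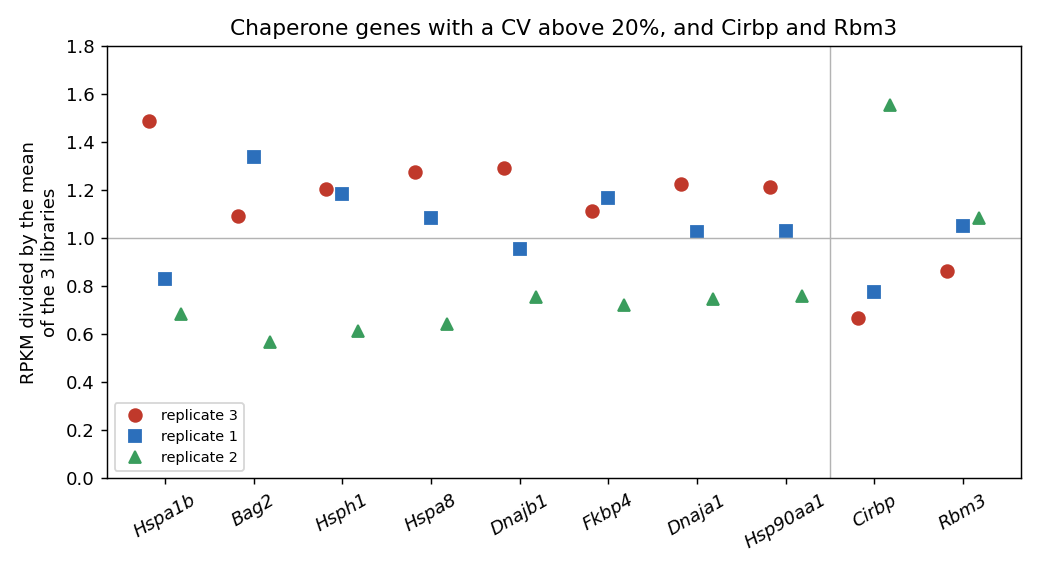
RPKM in each library divided by the mean of the 3 libraries, for the 8 chaperone genes with a CV above 20% and for Cirbp and Rbm3. Replicate 2 is lowest for all 8 chaperone genes and highest for Cirbp and Rbm3, and replicate 3 is highest for 6 of the 8. Of all genes tested, replicate 2 was lowest for 36.4% and replicate 3 highest for 35.0%. The order was known when the genes were chosen. Rbm3, with a CV of 11.85%, is shown beside Cirbp without the counts of Rbm3-ps, with which replicate 1 becomes its lowest.

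Spread beyond counting noise was common, in a larger share of the set than of all genes tested. Since the genes were chosen with earlier results of these libraries known, the shares below describe the choice and nothing is read from them. A chi-square test compared the 3 counts with Poisson noise, adjusted over 12147 genes by the Benjamini-Hochberg method. It called 34 of the 46 tested genes (73.9%), beside 54.6% of all genes tested. Without replicate 2 it called 20 of 46 (43.5%), beside 32.8% of all genes. The 46 tested genes were also more abundant, at a median log2(RPKM + 0.5) of 5.605 against 3.78 for all genes tested, and counting noise is smaller at high counts. The median CV was 8.26%, beside 9.77% for all genes, and 9 of 46 genes (19.6%) exceeded 20%, beside 17.8% of all genes. Those 9 were Cirbp, Hspa1b, Bag2, Hsph1, Hspa8, Dnajb1, Fkbp4, Dnaja1 and Hsp90aa1. Against genes of like abundance (edgeR, intercept-only quasi-likelihood fit), 0 of 46 were called, beside 0.0165% of all genes. Of the 46, 10 (21.7%) had an unadjusted p under 0.05, beside 5.3% of all genes. A robust fit called 0 of the 46, with 9 (19.6%) unadjusted, beside 4.97% of all genes unadjusted. Cirbp came nearest, with an unadjusted p of 0.000572 and an edgeR adjusted p of 0.458, and it was the 1 gene of the set called with no filter on low counts (adjusted p = 0.0190), beside 0.27% of all genes.

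Replicate 3 was highest for 32 of the 46 tested genes (69.6%), beside 35.0% of all genes tested. Replicate 2 was lowest for 35 (76.1%), beside 36.4% of all genes. Both held for 27 genes (58.7%), beside 21.9% of all genes. Since this order was known when the genes were chosen, these shares describe the choice and nothing is read from them. The log2 CPM of replicate 3 minus the mean of replicates 1 and 2 was above 0 for 39 genes and below 0 for 7, namely Cirbp, Rbm3, Dnajc7, St13, Dnaja3, Ahsa1 and Cct4 (which stood at 0.003 with no filter). Its median was 0.14, beside -0.003 for all genes tested, and it was 0.18 without replicate 1 and 0.06 without replicate 2.

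By role, the median difference was 0.32 for HSP90, 0.23 for HSP70 and HSP110, 0.21 for J-domain proteins, 0.17 for the heat shock factors and 0.14 for mitochondrial chaperones. It was 0.13 for the BAG family, 0.09 for cochaperones, 0.06 for CCT and -0.51 for the cold-inducible genes. The last group holds 2 genes, Cirbp at -0.71 and Rbm3 at -0.30. With the counts of Rbm3-ps added, Rbm3 was 235 CPM in replicate 3 against 191 and 292 CPM in replicates 1 and 2. Replicate 3 then lay between the other libraries, so the negative difference of Rbm3 depends on leaving that pseudogene out. The medians of all roles were closer to 0 without replicate 2. The median was then 0.13 for the heat shock factors, 0.05 for CCT, 0.19 for HSP90, 0.03 for HSP70 and HSP110, 0.10 for J-domain proteins, 0.08 for mitochondrial chaperones, 0.03 for the BAG family, 0.03 for cochaperones and -0.25 for the cold-inducible genes. Without replicate 1 it was 0.44 for HSP70 and HSP110, 0.23 for the BAG family and -0.76 for the cold-inducible genes. The largest differences of single genes in either direction were 0.95 for Hspa1b, -0.71 for Cirbp, 0.61 for Hspa8, 0.60 for Dnajb1, 0.50 for Hsph1, 0.49 for Dnaja1 and 0.46 for Hsp90aa1. Without replicate 2 they were 0.82 for Hspa1b, -0.21 for Cirbp, 0.24 for Hspa8, 0.43 for Dnajb1, 0.02 for Hsph1, 0.26 for Dnaja1 and 0.24 for Hsp90aa1. Of the genes searched, those with a 3-unit element lay at 0.50 (Hsph1), 0.28 (Hspd1), 0.18 (Hspe1), 0.17 (Dnajb6) and 0.09 (Chordc1). Without replicate 2 they lay at 0.02 (Hsph1), 0.21 (Hspd1), 0.11 (Hspe1), 0.13 (Dnajb6) and 0.06 (Chordc1). The promoters of Hspa8 and Hsp90aa1 were not searched. Those of Hspa1b (0.95), Dnajb1 (0.60), Dnaja1 (0.49) and Cirbp (-0.71) were searched and held no 3-unit match. The median difference of all 46 tested genes was 0.14. Any relation of the element to the difference was not tested.

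**Figure D4:**
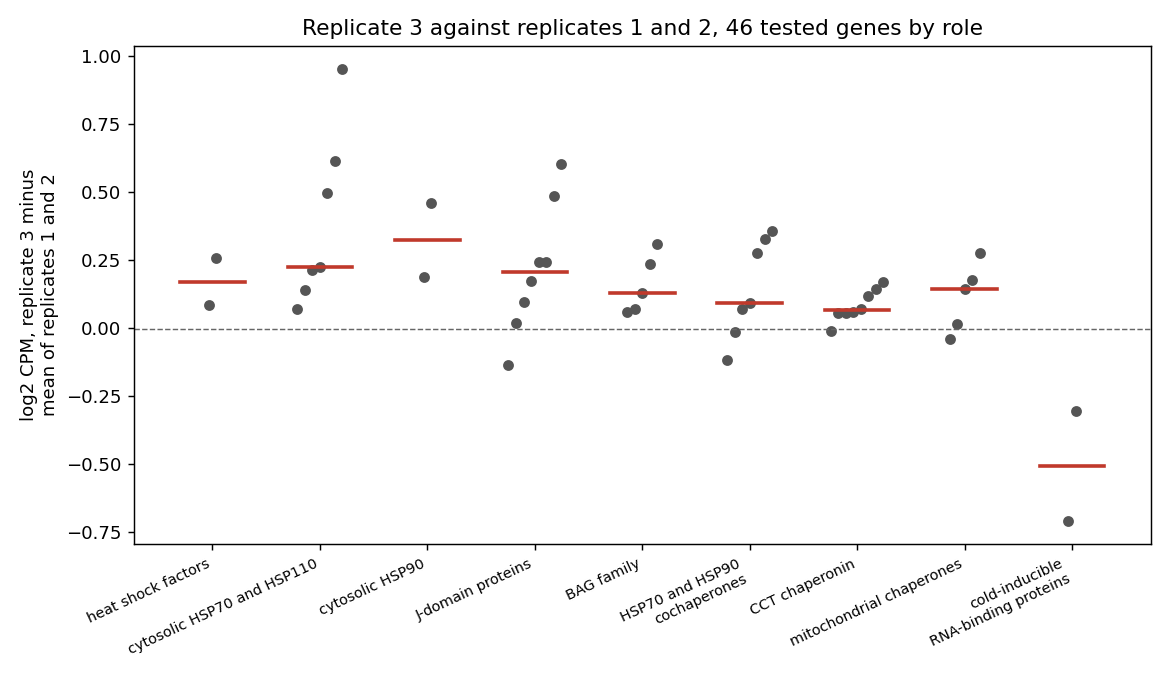
Log2 CPM of replicate 3 minus the mean of replicates 1 and 2, 1 point for each of the 46 tested genes by role, with the median of each role as a bar. Every role but the cold-inducible genes has a median above 0, from 0.06 for CCT to 0.32 for HSP90. The 2 cold-inducible genes, Cirbp and Rbm3, have a median of -0.51, with the counts of Rbm3-ps left out.

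In the edgeR quasi-likelihood test of replicate 3 against replicates 1 and 2, 0 of 46 genes were called in either direction, beside 0.0576% of all genes higher in replicate 3 and 0.0165% lower. Of the 46, 6 had an unadjusted p under 0.05, beside 9.62% of all genes. DESeq2 called 0 of the 46, beside 0.296% of all genes, and 3 had an unadjusted p under 0.05, beside 3.77% of all genes. The lowest edgeR adjusted p was that of Dnajb1, 0.342. One side is a single library, whose spread is assumed to be that of the other 2, and its order against them was known when the genes were chosen. Neither the p-values nor the lack of calls is therefore read as evidence about these genes.

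Other genes of the pathway, 92 in all, were taken by name. Of 74 tested, replicate 3 was highest in 20 (27.0%), beside 35.0% of all genes tested. Replicate 2 was lowest as well in 12 (16.2%), beside 21.9% of all genes, and the median difference was -0.01. One side of the replicate 3 comparison is a single library, so its calls are not given for these genes. Against genes of like abundance edgeR called 0 of 74, beside 0.0165% of all genes. An unadjusted p under 0.05 was found for 1, beside 5.3% of all genes. Hsbp1, which binds HSF1, had 51.5, 47.6 and 50.4 RPKM in replicates 3, 1 and 2. Fkbp8 had 138.2, 136 and 131 RPKM and the prefoldin subunit Pfdn5, which delivers actin and tubulin to CCT, had 86.6, 91.8 and 95.2 RPKM. Dnajc9, a J-domain protein that also binds histones, had 121.7, 107.5 and 94.0 RPKM. The small heat shock gene Hspb6 had 4.48, 5.41 and 5.23 RPKM, and Hspb8 had no count.

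Other gene groups also differed in level between the libraries, as a description. All 24 genes of a DNA replication and mitosis list were highest in replicate 3 and lowest in replicate 2, with a summed 2875 RPKM in replicate 3 against 2455 and 2019 RPKM in replicates 1 and 2. Of 13 tested immediate early genes, which respond within minutes to stimuli, 10 had the same order. Jund had 205.6 RPKM in replicate 3 against 133.8 and 112.5 RPKM in replicates 1 and 2, whereas Btg2, the most abundant of the list, had 228.7 RPKM in replicate 3 against 238.3 and 254.9 RPKM in replicates 1 and 2. Neutrophil markers were highest in replicate 3 for 11 of 15 genes, but lowest in replicate 1 for 11. Monocyte and macrophage markers summed to 270.0 RPKM in replicate 3 against 190.0 and 222.9 RPKM in replicates 1 and 2, with 7 of 8 tested genes highest in replicate 3 and 7 of 8 lowest in replicate 1. The 12 pre-B markers summed to 4830 RPKM in replicate 3 against 5267 and 5470 RPKM in replicates 1 and 2, and 10 of them were highest in replicate 2. With replicate 3 thinned to the smallest total, the fitted log2 change was above 0 for 38 of the 46 chaperone genes and below 0 for 8, against 39 and 7 at full depth. The part of cell cycle genes, immediate early genes or other cells in the order of the chaperone genes was not tested.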

How the data were processed

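The files hold read counts per gene, deposited by the authors for 3 libraries of 1 group with a gene length per Entrez identifier. Reads were summarised with featureCounts on mm9, per the submitters' processing notes, and the labels name CASAVA. Not given in the sources used here are the aligner, the annotation, the strand setting and the rule for reads that fit several genes. Symbols came from a RefSeq table of GRCm38.p6 by Entrez identifier (24176 of 26286 matched, and all 50 members), for names only, and shared 31-base words from GENCODE transcripts of GRCm38.

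RPKM and CPM were computed here from the counts, with TMM-scaled library sizes in edgeR 4.0.16 (R 4.3.3). Fold and log2 differences between genes used RPKM + 0.5, and those between libraries log2 CPM with a prior count of 2. The filterByExpr filter, at a minimum count of 10 and a total of 15, left 12147 genes, 46 members among them. Tests were the chi-square, the intercept-only fit and glmQLFTest, with Benjamini-Hochberg adjustment over all genes tested and a threshold of 0.05. DESeq2 1.42.0 was an alternative. The code was tested on simulated data. Other alternatives were scaling, filter, pseudocount, prior count, TPM or CPM, thinning of replicate 3 and leaving out each replicate.

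The members and all gene lists were chosen with earlier results of these data known. All members may be named, and of each other list the 3 highest and 2 lowest by mean RPKM and any gene past the threshold. Not every such gene is named, and Cnp and Rbm3-ps were picked with their values in view. P-values measure only the spread between these samples. Figures were drawn with matplotlib 3.10.9.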

Additional observations from a re-analysis of the deposited data

How the results depend on the processing

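No paired analysis was possible because the libraries form 1 group. The median log2 level of the members was 5.41, and moved to 6.64 with TPM, 6.505 with CPM, 5.605 with members that passed the filter and 5.67 with members that share at most 10% of their words with another gene, an alternative added after seeing the data. Of 46 members, 34 spread beyond counting noise, and 20 to 34 with a replicate left out, the lowest without replicate 2, beside 54.6% of all genes with all libraries and 43.3%, 32.8% and 25.7% without replicates 1, 2 and 3. Among the 26 tested members with few shared words there were 18, where fewer genes were tested. Against genes of like abundance 0 members were called by edgeR, and 1, Cirbp, with no filter. On CPM, with no length, the log2 difference turned to 0.394 for Dnaja1 minus Dnajb1 (main -0.942), to -0.047 for Cct4 (main 0.113) and to 0.009 for Cct8 (main -0.113) minus the median subunit.

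Over all genes, edgeR called 9 genes in the comparison of replicate 3, against 36 with DESeq2, 23 with no scaling (also added after seeing the data), and 0 with no filter or with replicate 3 thinned. Against genes of like abundance 2 were called, against 47 with no filter, 44 without replicate 2, 8 without replicate 1 and 0 with a robust fit. Beyond counting noise 6627 were called, against 4254 without replicate 2 and 3145 without replicate 3. The causes were not tested. Leaving out replicate 1 or 2 from the comparison of replicate 3 leaves 1 library a side and no residual degrees of freedom, so those values have no test. Depth limits Hspa1a, Bag3, Dnaja4 and Hspb1, which had at most 23 counts in a library.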
